A study of Homo sapiens with 8 samples.

Results

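Cytochrome P450 genes of the human liver cancer line Alexander1 are described here. Members were the rows of the deposited count table whose protein-coding symbol had the form of a P450 gene name (CYP, a family number, a subfamily letter and a gene number), which gave 55 genes of the 58206 in the table. The polymorphic pseudogene CYP2D7 matched the form of the name but not the gene type and was not a member. Alexander1 (ATCC CRL-8024) is an epithelial hepatocellular carcinoma line, and the series concerns the Wnt pathway, focal adhesion and the uptake of integrin beta-1. RNA of 4 parental samples was compared with RNA of 4 samples of a derivative in which Axin1, a scaffold of the complex that degrades beta-catenin, was put back. Per the labels, the parental cells carry an Axin1 without its GSK3-binding region and have a constantly active Wnt pathway. The derivative was made by retroviral (VSVG) transfer of an Axin1 plasmid followed by clonal selection in hygromycin B, and both groups grew in the same medium. Effects of Axin1, of the virus, of hygromycin B and of clonal selection cannot be told apart. Nothing in the labels says that the samples of a group came from separate cultures, so p-values measure the spread between these samples, which may be technical.

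P450 enzymes hold a haem iron through a cysteine and use it to insert an oxygen atom into their substrate. Those of the endoplasmic reticulum take electrons from P450 reductase, and those of mitochondria from ferredoxin. In liver they clear drugs and pollutants, hydroxylate or epoxidise fatty acids and eicosanoids, turn cholesterol into bile acids and set the levels of vitamin D and retinoic acid. Several drug-metabolising P450s are made mainly by hepatocytes around the central vein, where Wnt signalling is high.

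Libraries held 11232951 to 15263761 counts in the parental group and 12372436 to 26400782 in the derivative, so 3 counts, used below as the detection floor, equalled 0.108 to 0.267 CPM (the counts of a gene over the scaled library total). AXIN1 stood at 55.3, 52.8, 47.4 and 54.2 CPM in parental replicates 1 to 4 and at 47.6, 48.0, 48.2 and 37.7 CPM in the derivative. Its mRNA was thus not higher in the derivative (log2 fold change -0.21 ± 0.12 (SE), adjusted p = 0.267). The counts do not separate the endogenous from the introduced transcript, and the derivative is called restored-labelled here. Parental replicate 1 stood apart on the second principal component of log2 CPM (score 61.5, the other 7 libraries between -30.3 and 25.0). Restored-labelled replicate 1 lay nearest to the parental group on the first (22.2, the other 3 between 48.7 and 56.8). All 14 hepatocyte markers examined were expressed, with 2 higher (FGB and TTR) and 4 lower (AHSG, APOA2, TF and SERPINA1) in the restored-labelled libraries. That was 42.9% of the list, beside 19.2% of all genes tested, a share that also stands beside the marker counts below. The summed level of the 14 was 25538 to 30261 CPM in parental and 18970 to 23001 CPM in restored-labelled libraries. The part of this level in the results below was not tested. The summed trophoblast list was 134 to 230 CPM in parental and 15 to 23.9 CPM in restored-labelled libraries. Of its 3 tested genes CGA and GATA3 fell and TFAP2C rose, while PSG1, CGB3, CGB5 and HSD3B1 of that list were at 0 in every library. The summed endothelial list was 4.58 to 6.77 CPM in parental and 34.1 to 58.5 CPM in restored-labelled libraries, nearly all of it PECAM1, the 1 of its 5 genes that was tested and which rose. TEK of that list was at 0 in every library. CFTR rose and PDGFRB fell among the cholangiocyte and fibroblast markers. Of the 7 markers of steroid-making cells 0 were tested, and of the 5 of blood cells 1, LYZ, was tested and not called. LYZ stood at 421 to 949 CPM in parental and 672 to 919 CPM in restored-labelled libraries. Some markers, named after their values were seen and not called between the groups, stood apart in the first replicates. KRT19, a cholangiocyte keratin, stood at 34.4 CPM in restored-labelled replicate 1 against 0.0781 to 1.43 CPM in the other 3, and at 16.9 CPM in parental replicate 1 against 1.29 to 3.99 CPM. SPP1, also of that list, stood at 10.8 CPM in restored-labelled replicate 1 against 0 to 0.345 CPM, and KRT7 at 12.4 CPM in parental replicate 1 against 1.86 to 3.12 CPM. ALB, albumin, was lowest in these libraries, with 13.8 against 445 to 681 CPM and 46.7 against 159 to 208 CPM. Other markers went the other way. CFTR of the cholangiocyte list was lowest in both first replicates. It stood at 0.534 against 1.69 to 2.93 CPM in parental and 8.11 against 10.5 to 14.8 CPM in restored-labelled libraries. AFP of the hepatocyte list was highest in both, with 536 against 279 to 324 CPM in parental and 311 against 79.7 to 146 CPM in restored-labelled libraries. The summed cholangiocyte list was 27.3 to 59.0 CPM in parental and 39.6 to 88.0 CPM in restored-labelled libraries. The part of these lists in the results, those that change without a first replicate included, was not tested.

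Of the 55 P450 genes, 22 passed the expression filter and 33 did not. The test called 10 of the 22 (45.5%), 5 higher and 5 lower in the restored-labelled libraries, where it called 2738 of all 14289 genes tested (19.2%). Higher calls made up 10.4% of all genes and lower calls 8.77%. In 10 of the 22 (45.5%), the called genes, the 4 values of one group lay above the 4 of the other, which held for 23.9% of all genes tested. The median log2 fold change of the 22 was 0.09, beside 0.0026 for all genes, so the family had no common direction. It was -0.05 after thinning to equal depth and -0.03 without restored-labelled replicate 1. In bulk RNA, fewer cells that make a transcript and less of it per cell cannot be told apart.

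**Figure D1:**
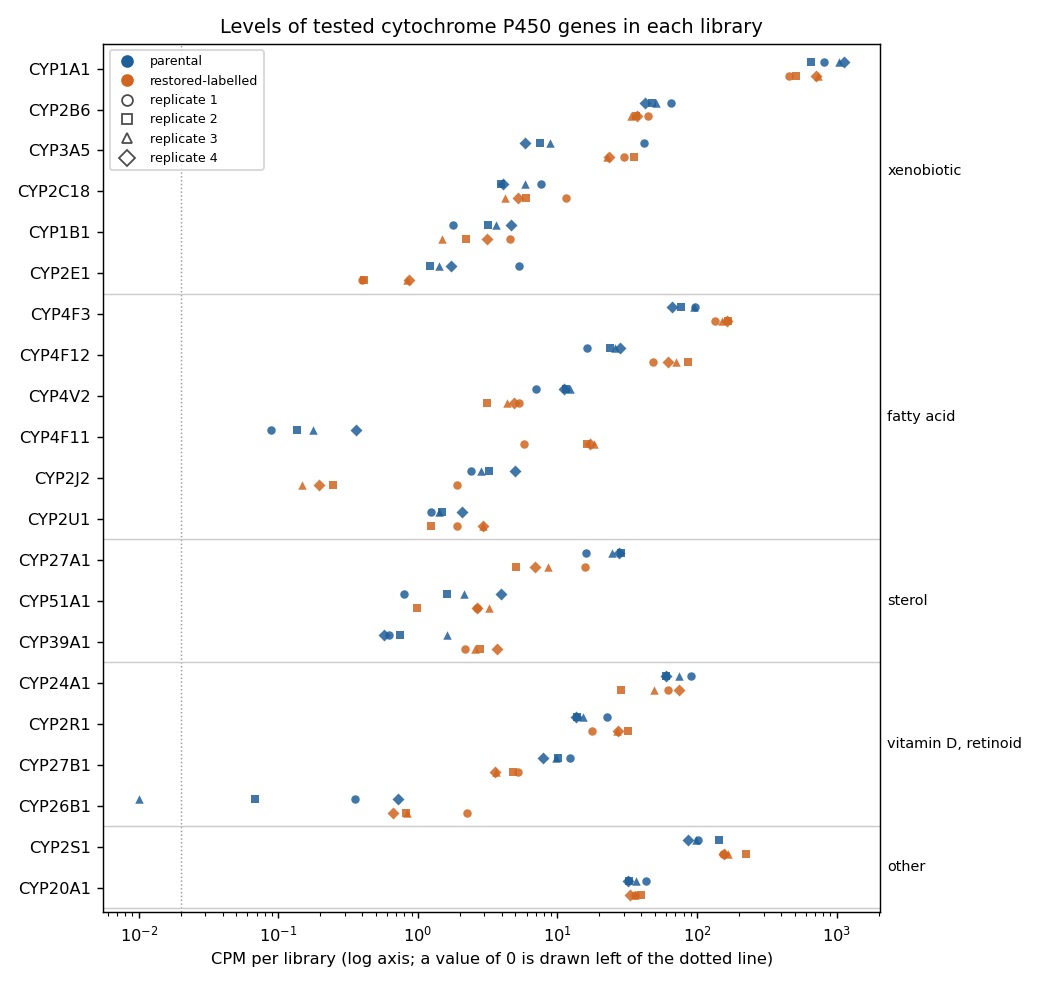
Level of the tested P450 genes described here in each of the 8 libraries, in CPM on a log axis, grouped by role; colours mark the groups and shapes the replicates. CYP1A1 lies at the right end with 458 to 1137 CPM, and CYP4F11 shows the widest gap between groups, with no parental value above 0.358 CPM and no restored-labelled value below 5.74 CPM.

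**Figure D2:**
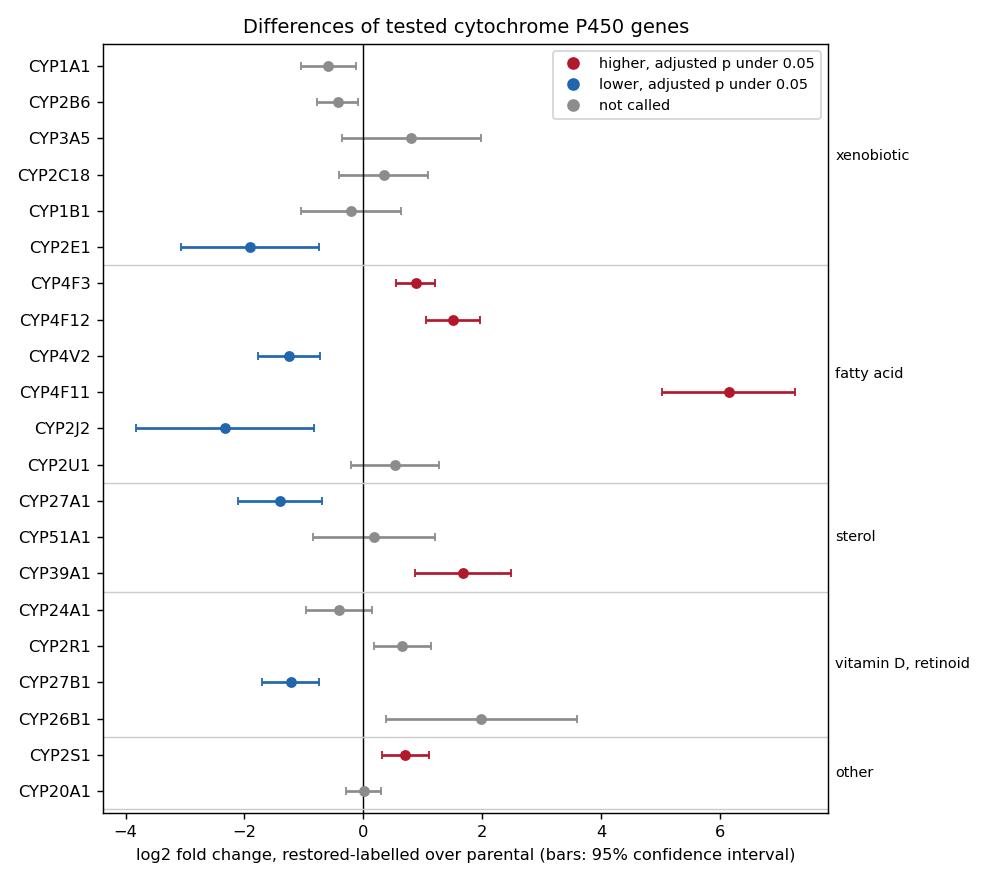
Log2 fold change of the tested P450 genes described here with 95% confidence intervals, restored-labelled over parental; red marks the 5 higher and blue the 5 lower genes. CYP4F11 stands at 6.15 and CYP2J2 at -2.32, and the interval of CYP3A5, which differed widely between parental libraries, spans 0.

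The clearest change was a rise of CYP4F genes, which encode omega-hydroxylases of long-chain fatty acids, leukotrienes and vitamins E and K. The 6 CYP4F members lie together on chromosome 19 (GRCh38, chr19:15508493-15934867), and 3 of them passed the filter. All 3 were higher, and a further 2, at most at 1 count in each parental library, had counts in every restored-labelled library. CYP4F11, with at most 5 parental counts, passed the filter only through the restored-labelled libraries. CYP4F12 and CYP4F3 had at least 182 and 923 counts in every library. The CYP4F genes were not a list set before the test but a part of the fatty acid and eicosanoid P450s, so no test covers them as a group. The sixth, CYP4F8, was at 0 in all 8. Their products share the loop around the haem-binding cysteine, the most conserved stretch of a P450. The 30 coding bases of that loop are shown to compare the 6 genes, from the GENCODE 29 coding sequences, 5′ to 3′, with the codon of the cysteine in capitals:
CYP4F11: ttctcggcagggcccagaaacTGCatcggg
CYP4F12: ttctccgcagggcccaggaacTGCatcggg
CYP4F2: ttctcggcagggcccaggaacTGCatcggg
CYP4F3: ttctcagcagggcccaggaacTGCatcggg
CYP4F8: ttctcggcggggcccaggaacTGCatcggg
CYP4F22: ttctctgcaggacccaggaatTGCatcgga
Over the whole coding sequence CYP4F2 and CYP4F3 were 94.7% identical and CYP4F11 and CYP4F2 88.4%, while CYP4F22 shared 66.1% to 68.3% with the others. A read from a shared stretch could be assigned to either gene. Of the 50-base words in each gene's exons, 14.8% in CYP4F2, 9.10% in CYP4F3, 2.26% in CYP4F12, 0.786% in CYP4F11 and 0 in CYP4F22 also occurred in exons of another gene.

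CYP4F11 (ENSG00000171903, chr19:15912367-15934867, minus strand), which hydroxylates long-chain fatty acids and vitamin K, went from the floor to a clear level. It had 1, 2, 2 and 5 counts in the parental libraries and 160, 197, 368 and 440 in the restored-labelled ones. On the CPM scale this was 0.089, 0.135, 0.178 and 0.358 against 5.74, 16.3, 18.1 and 17.2. All restored-labelled values lay far above the parental ones, and replicate 1 was the lowest of them. The log2 fold change was 6.15 ± 0.51 (SE, 95% interval 5.03 to 7.26, adjusted p = 3.8e-05, n = 4 per group by edgeR).

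CYP4F12 (chr19:15672757-15697174, plus strand), a hydroxylase of fatty acids and some antihistamines, stood at 16.2, 23.8, 25.7 and 27.8 CPM in parental and 48.3, 85.8, 71.1 and 62.1 CPM in restored-labelled libraries. The groups were apart by more than their spread, with a log2 fold change of 1.51 ± 0.21 (SE, adjusted p = 9.7e-04). CYP4F3 (chr19:15640897-15662825, plus strand), the leukotriene B4 hydroxylase, had the highest level of the 6, with 96.8, 77.2, 95.4 and 66.1 CPM in parental and 135, 167, 151 and 164 CPM in restored-labelled libraries. It rose by 0.88 ± 0.15 on the log2 scale (SE, adjusted p = 0.0027), the least of the 3. Those 3 calls held in each of the 18 alternatives examined.

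CYP4F2, a vitamin K and vitamin E hydroxylase, had 0, 0, 1 and 0 counts in parental and 13, 19, 31 and 43 in restored-labelled libraries, at least 5.51-fold higher against a floor of 3 counts per library. CYP4F22, which hydroxylates very long fatty acids of the skin barrier, had 0, 1, 0 and 0 against 52, 9, 6 and 7 counts, at least 3.34-fold higher. Restored-labelled replicate 1 held most of these counts, and without it the bound was 1.84-fold. CYP4F11 was lower in that library than in the other restored-labelled ones. Neither gene passed the filter. When all 30224 genes with a count were tested, which called 10.6% of them, both were called (adjusted p = 1.05e-06 for CYP4F2 and 1.27e-04 for CYP4F22). The sum of the 6 CYP4F genes went from 107 ± 12.1 to 238 ± 33.7 CPM (SD, n = 4).

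Promoters of CYP4F11, CYP4F2 and CYP4F3 are shown because 5 genes of the cluster were higher together. The sequences run 5′ to 3′ along the gene, from 250 bases before to 50 after a RefSeq start (GRCh38.p14). CYP4F11 had 2 starts in the table, CYP4F12 had no entry of this length, and the entry of CYP4F22 is not printed. Capitals mark bases that lie in a run of at least 12 shared with the partner, CYP4F2 for the first start of CYP4F11 and CYP4F3 for the second. Runs that overlap or adjoin, as in CYP4F3, appear as 1 longer stretch of capitals:
CYP4F11, first start, chr19:15934818-15935117, minus strand: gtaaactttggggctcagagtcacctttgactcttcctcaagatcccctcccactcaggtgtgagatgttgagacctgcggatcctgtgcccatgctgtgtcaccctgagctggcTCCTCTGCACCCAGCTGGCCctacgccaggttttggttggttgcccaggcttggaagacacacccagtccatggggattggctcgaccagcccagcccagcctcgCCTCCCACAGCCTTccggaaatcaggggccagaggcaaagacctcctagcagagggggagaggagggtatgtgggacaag
CYP4F2, chr19:15898025-15898324, minus strand: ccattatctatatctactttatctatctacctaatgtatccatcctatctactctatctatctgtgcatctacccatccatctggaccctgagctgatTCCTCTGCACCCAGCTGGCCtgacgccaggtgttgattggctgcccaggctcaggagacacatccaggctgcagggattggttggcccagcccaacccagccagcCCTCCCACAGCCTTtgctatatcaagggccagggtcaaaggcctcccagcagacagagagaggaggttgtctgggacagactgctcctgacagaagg
CYP4F11, second start, chr19:15934480-15934779, minus strand: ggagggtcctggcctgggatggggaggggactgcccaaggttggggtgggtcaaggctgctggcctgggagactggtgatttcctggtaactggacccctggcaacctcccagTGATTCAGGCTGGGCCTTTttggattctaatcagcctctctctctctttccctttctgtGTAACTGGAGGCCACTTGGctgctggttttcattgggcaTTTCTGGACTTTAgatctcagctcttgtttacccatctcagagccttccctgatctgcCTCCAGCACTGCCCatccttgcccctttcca
CYP4F3, chr19:15641062-15641361, plus strand: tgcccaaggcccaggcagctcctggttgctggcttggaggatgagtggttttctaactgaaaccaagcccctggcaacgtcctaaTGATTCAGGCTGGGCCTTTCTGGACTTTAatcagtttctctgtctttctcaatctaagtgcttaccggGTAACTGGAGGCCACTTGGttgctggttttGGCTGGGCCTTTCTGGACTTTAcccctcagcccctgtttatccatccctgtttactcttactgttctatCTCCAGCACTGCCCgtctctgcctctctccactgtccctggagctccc
In a global alignment the first pair was 65.3% identical with a longest shared run of 20 bases, and the second pair 61.7% with a run of 19. The promoter of CYP4F8 was 66.5% identical to the first start of CYP4F11 although CYP4F8 had no count in any library. The other pairs of CYP4F entries lay between 41.0% and 57.0%. Searched on both strands, the antioxidant response letters TGACNNNGC were found once each before the first start of CYP4F11 and the starts of CYP4F22 and CYP4F8. They occur in 13.3% of all 35116 promoter entries of this length.

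**Figure D3:**
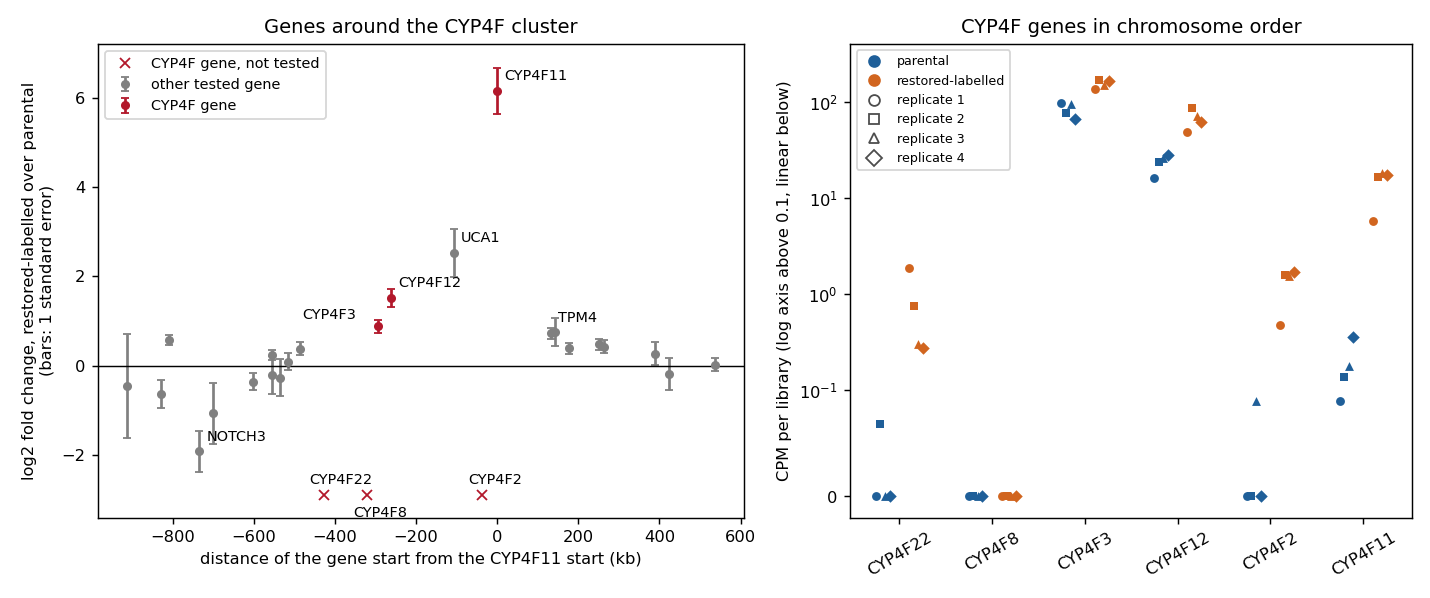
Left, log2 fold change (restored-labelled over parental, bars 1 SE) of tested genes within 500 kb of the CYP4F cluster, by distance from the CYP4F11 start in kb, with crosses at the bottom for the untested CYP4F8, CYP4F2 and CYP4F22; right, CPM of the 6 CYP4F genes in each library, on an axis that is linear below 0.1. CYP4F11 reaches 6.15, UCA1 2.53 and CYP4F12 1.51, and 14 of the 20 neighbours were not called.

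Log2 fold changes differed between the genes of the region. Of 20 other tested genes in the cluster or within 500 kb of it, 5 were higher, 1 was lower and 14 were not called. Among all genes tested 10.4% were higher and 8.77% lower. The median log2 fold change of the 20 was 0.17, beside 0.0026 for all genes. The long noncoding RNA UCA1, the 1 tested gene between the CYP4F genes, rose from 71.5 to 411 CPM (2.53 ± 0.54 (SE), adjusted p = 0.010). TPM4, a tropomyosin, was 0.73 higher on the log2 scale, ILVBL 0.58, FAM32A 0.48 and RAB8A 0.39. NOTCH3, a Notch receptor, fell by 1.92. Relative to the CYP4F11 start, TPM4, RAB8A and FAM32A start at 132, 177 and 251 kb, and ILVBL and NOTCH3 at -809 and -734 kb. A shift of the region as a whole was not tested. The 3 tested CYP4F genes had log2 fold changes of 0.88, 1.51 and 6.15.

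The other fatty acid P450s that were called fell. CYP4V2 (chr4:186191520-186213456), a fatty acid hydroxylase mutated in Bietti corneoretinal dystrophy, stood at 7.03, 11.6, 12.4 and 11.2 CPM in parental and 5.27, 3.14, 4.34 and 4.92 CPM in restored-labelled libraries. The groups did not overlap, and the log2 fold change was -1.24 ± 0.24 (SE, adjusted p = 0.0055). CYP2J2 (chr1:59893308-59926790), which makes epoxides of arachidonic acid, stood at 2.40, 3.25, 2.85 and 4.94 CPM in parental and 1.90, 0.248, 0.148 and 0.195 CPM in restored-labelled libraries. Restored-labelled replicate 1 lay close to the parental values while the other 3 held 3 to 5 counts each. The log2 fold change was -2.32 ± 0.68 (SE, adjusted p = 0.0358), and -4.09 without that library. The call was lost without parental replicate 2, 3 or 4 or restored-labelled replicate 2, 3 or 4, with adjusted p between 0.0571 and 0.101, and after thinning (adjusted p = 0.0505). CYP2U1, a fatty acid hydroxylase, was not called (1.56 ± 0.359 against 2.24 ± 0.824 CPM, SD, log2 interval -0.20 to 1.27). Of the 14 fatty acid and eicosanoid P450s, 6 were tested, 3 rose and 2 fell, beside 19.2% called among all genes tested. The CYP4A genes and CYP4B1 were at 0 in every library.

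Among 18 xenobiotic-metabolising P450s of families 1 to 3, 7 were tested and 1, CYP2E1, passed the test, beside 19.2% of all genes. CYP1A1, which oxidises polycyclic hydrocarbons and is switched on by the aryl hydrocarbon receptor, was the most abundant P450 transcript. It stood at 806, 655, 1034 and 1137 CPM in parental and 458, 508, 734 and 716 CPM in restored-labelled libraries. The ranges overlapped between 655 and 734 CPM, and the difference was not called (log2 fold change -0.59 ± 0.21 (SE), interval -1.06 to -0.12, adjusted p = 0.0778). It passed without the expression filter (adjusted p = 0.0352), with the DESeq2 Wald test (0.0369) and without parental replicate 1 (0.0498). CYP1A1 made up 57.9% to 73.6% of all P450 CPM in parental libraries and 41.8% to 54.4% in restored-labelled ones. The sum of the other members was 407 to 556 CPM in parental and 600 to 708 CPM in restored-labelled libraries, whereas the sum with CYP1A1 was 1386 ± 188 against 1244 ± 140 CPM (SD, n = 4). Its relative CYP1B1, lower by 0.21 ± 0.38 on the log2 scale, was not called.

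CYP2E1 (chr10:133520406-133561220, plus strand), the ethanol- and paracetamol-oxidising P450 of pericentral hepatocytes, was low. It stood at 5.34, 1.22, 1.43 and 1.72 CPM in parental and 0.395, 0.413, 0.838 and 0.859 CPM in restored-labelled libraries. Every restored-labelled value was below every parental one, and parental replicate 1 was the highest. The log2 fold change was -1.91 ± 0.53 (SE, adjusted p = 0.0284) and -1.18 without parental replicate 1. The call was lost when any 1 of the restored-labelled replicates 1 to 4 was left out, with adjusted p between 0.0583 and 0.0656, and after thinning (adjusted p = 0.0544). Of its exon bases, 21.5% overlap SYCE1 on the opposite strand, a meiosis gene that went the other way. SYCE1 had 1, 1, 1 and 0 counts in parental and 36, 59, 97 and 122 in restored-labelled libraries, at least 16.5-fold higher. The sources used here do not give the strand setting of the counting, so reads of the 2 genes in the overlap cannot be told apart.

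The remaining tested drug-metabolising genes were not called. CYP2B6, which oxidises bupropion and efavirenz, stood at 65.4, 47.7, 50.7 and 42.1 CPM in parental and 44.7, 36.7, 33.7 and 37.2 CPM in restored-labelled libraries (log2 fold change -0.43 ± 0.16 (SE), adjusted p = 0.0775, and 0.0444 without restored-labelled replicate 1). With all libraries kept it was called with the DESeq2 Wald test. CYP3A5, a major drug hydroxylase, stood at 41.7, 7.45, 8.82 and 5.87 CPM against 29.8, 35.5, 22.6 and 23.3 CPM. Parental replicate 1 was above all restored-labelled libraries and the other 3 parental libraries were below them. The log2 fold change was 0.81 ± 0.53 (SE, adjusted p = 0.315) with all libraries and 1.91 (adjusted p = 1.26e-04) without parental replicate 1. With all libraries kept CYP3A5 was called by edgeR without the expression filter (adjusted p = 0.0458). CYP2C18, of which 36.6% of 50-base exon words occur in another gene, was 0.34 ± 0.34 higher on the log2 scale and not called, and its value turned to -0.06 without restored-labelled replicate 1.

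Bile acid synthesis starts from cholesterol, either at CYP7A1 or, in the acidic pathway, at the mitochondrial CYP27A1. CYP7A1 was at 0 in every library. CYP27A1 (chr2:218781749-218815293) fell, with 16.1, 28.4, 24.5 and 27.8 CPM in parental and 15.7, 5.04, 8.62 and 6.87 CPM in restored-labelled libraries. The groups were separated by parental replicate 1 at 16.1 and restored-labelled replicate 1 at 15.7, and the log2 fold change was -1.40 ± 0.32 (SE, adjusted p = 0.0132). CYP39A1 (chr6:46549580-46652830), which hydroxylates 24-hydroxycholesterol, rose from 0.623, 0.745, 1.60 and 0.573 CPM to 2.19, 2.81, 2.56 and 3.67 CPM. No values overlapped, with a log2 fold change of 1.67 ± 0.37 (SE, adjusted p = 0.0114). CYP51A1, the lanosterol demethylase of cholesterol synthesis, was measured at 2.12 ± 1.33 and 2.39 ± 0.973 CPM (SD, n = 4, log2 interval -0.84 to 1.2). This level is uncertain, since 79.4% of its exon bases are shared on the same strand with AC000120.2, a gene of GENCODE 29 with no row among those analysed here, and its value turned to -0.08 without parental replicate 1. CYP8B1 and CYP7B1 had at most 2 counts in any library. CYP46A1, the cholesterol 24-hydroxylase of brain, had 5 to 12 counts in parental and 12 to 21 in restored-labelled libraries.

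The letters CTTTGAA, one of the sequences that TCF and LEF factors of the Wnt pathway bind, occur before the RefSeq starts of CYP27A1 and CYP2E1, which both fell. These 2 promoters (GRCh38.p14, both on the plus strand, 5′ to 3′) are shown with the match in capitals:
CYP27A1, chr2:218781897-218782196: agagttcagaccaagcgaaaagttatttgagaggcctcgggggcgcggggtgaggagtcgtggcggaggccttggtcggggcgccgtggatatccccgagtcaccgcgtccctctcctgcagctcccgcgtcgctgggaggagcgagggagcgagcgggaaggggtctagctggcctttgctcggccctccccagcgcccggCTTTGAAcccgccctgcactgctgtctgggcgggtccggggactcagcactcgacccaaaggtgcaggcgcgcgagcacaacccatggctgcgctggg
CYP2E1, chr10:133527113-133527412: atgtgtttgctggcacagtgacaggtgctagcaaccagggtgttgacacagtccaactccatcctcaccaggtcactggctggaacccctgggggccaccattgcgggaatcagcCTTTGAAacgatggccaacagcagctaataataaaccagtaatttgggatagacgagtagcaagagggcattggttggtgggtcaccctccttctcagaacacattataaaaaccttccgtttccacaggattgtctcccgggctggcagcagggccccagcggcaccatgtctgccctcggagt
The match lies 48 bases before the start in CYP27A1 and 135 bases before it in CYP2E1. CYP39A1, which rose, has the match 24 bases after its start, on the other strand. Promoter entries were found for 39 members (52 entries), of which 3 members held CTTTGAA and a further 3, CYP3A43, CYP2C19 and CYP2B6, held CTTTGAT. Neither was found in the entries of CYP4V2 and CYP2J2, which also fell, and no match was found for CYP27B1, another gene that fell. A part of these letters in the changes was not tested. On both strands CTTTGAA occurs in 4.43% and CTTTGAT in 2.62% of all 35116 entries of this length. The xenobiotic response core GCGTG was found 57 bases before the start of CYP1A1, and in any entry of 13 of the 39 members. It occurs in 36.5% of all entries on both strands. Members can have several entries, so these counts of members and shares of single entries are not like for like.

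Vitamin D is made active by the 25-hydroxylase CYP2R1 and then the 1-alpha-hydroxylase CYP27B1, and is broken down by CYP24A1. CYP27B1 (chr12:57762334-57768986) fell, from 12.4, 10.2, 9.80 and 7.87 CPM to 5.20, 4.79, 3.65 and 3.55 CPM. All parental values lay above all restored-labelled ones, with a log2 fold change of -1.23 ± 0.22 (SE, adjusted p = 0.0037). CYP2R1 stood at 22.7, 13.8, 15.3 and 13.7 CPM against 17.7, 32.1, 26.5 and 27.1 CPM. The first replicate of each group crossed the ranges, and the difference was not called (log2 fold change 0.66 ± 0.22 (SE), adjusted p = 0.0587). It was called without parental replicate 1 (adjusted p = 0.00996) or restored-labelled replicate 1 (adjusted p = 0.0188). With all libraries kept CYP2R1 was also called by edgeR without the expression filter (adjusted p = 0.0152), on plain totals and with the DESeq2 Wald test. CYP24A1 had 71.3 ± 14.5 and 53.5 ± 19.4 CPM (SD, n = 4) and was not called, with a log2 interval of -0.97 to 0.15. VDR, the vitamin D receptor, was higher in all restored-labelled libraries (0.413 ± 0.395 against 1.78 ± 0.473 CPM, SD, log2 fold change 2.07 ± 0.50 (SE), adjusted p = 0.0172). That call was lost without parental replicate 2 (adjusted p = 0.0605) or restored-labelled replicate 4 (adjusted p = 0.0570), and after thinning to equal depth (adjusted p = 0.0658).

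CYP26 enzymes break down retinoic acid. CYP26B1, the 1 tested member under a mean of 1 CPM and named after its values were seen, stood at 0.356, 0.0677, 0 and 0.716 CPM against 2.26, 0.826, 0.838 and 0.664 CPM. Parental replicate 4 lay within the restored-labelled range, and the log2 fold change of 1.98 ± 0.73 (SE, adjusted p = 0.0809) was not called, but was 3.04 (adjusted p = 0.0361) without that library. With all libraries kept CYP26B1 was called with limma-voom, and by edgeR without the expression filter (adjusted p = 0.0179). CYP26A1 had 4 to 10 counts in parental and 6 to 27 in restored-labelled libraries, and CYP26C1 none. Of the 7 vitamin D and retinoid members 4 were tested and 1 fell, beside 19.2% called among all genes tested.

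CYP2S1 (chr19:41193049-41207539), an extrahepatic P450 whose natural substrate is less well known, was the second most abundant per length. It stood at 102, 143, 97.6 and 86.2 CPM in parental and 152, 226, 167 and 156 CPM in restored-labelled libraries. The highest parental value was below the lowest restored-labelled value, and the log2 fold change was 0.71 ± 0.18 (SE, adjusted p = 0.0217). The adjusted p was 0.0590 without parental replicate 3, 0.0547 without parental replicate 4, 0.0534 without restored-labelled replicate 2 and 0.0504 without restored-labelled replicate 3. CYP20A1, an orphan P450 without an assigned substrate, stood at 35.9 ± 5.04 and 36.1 ± 2.64 CPM (SD, n = 4), with a log2 interval of -0.29 to 0.30.

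**Figure D4:**
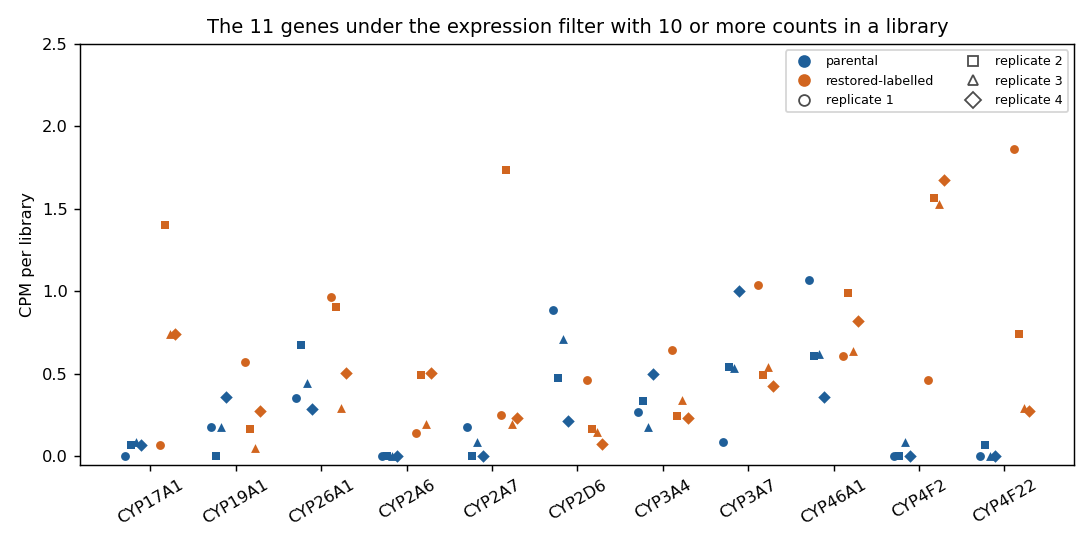
CPM of the 11 P450 genes that did not pass the expression filter but had 10 or more counts in some library, in each of the 8 libraries. CYP2A6 is at 0 in the 4 parental libraries and above 0 in the 4 restored-labelled ones, and CYP4F22 is at most 0.0677 CPM in any parental library.

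Of the 33 members under the filter, 11 had 10 or more counts in some library, 12 had between 1 and 9 at most, and 10 were at 0 in all 8. Without the filter the 33 less the 10 at 0 could be tested, and 5 were called, all higher in the restored-labelled libraries. That test called 10.6% of all 30224 genes with a count. Libraries held 12372436 to 26400782 counts in the restored-labelled group and 11232951 to 15263761 in the parental one. The part of this depth in the 5 calls, which rest on few counts, was not tested. CYP4F2 and CYP4F22 are described above. CYP17A1, the 17-hydroxylase of steroid synthesis, had 0, 1, 1 and 1 counts in parental and 2, 17, 15 and 19 in restored-labelled libraries (at least 3.10-fold higher, adjusted p = 0.00287). Restored-labelled replicate 1 was at 0.0717 CPM, within the parental range of 0 to 0.0891 CPM. Without restored-labelled replicate 2 the bound of CYP17A1 was 2.17-fold. Of its exon bases, 41.1% overlap WBP1L on the opposite strand, which was measured at 40.2 ± 3.22 and 47.8 ± 4.33 CPM (SD, n = 4). The strand setting of the counting is not given, so reads of CYP17A1 and WBP1L in the overlap cannot be told apart. CYP2A6, the nicotine oxidase, had no parental count and 4, 6, 4 and 13 restored-labelled counts (at least 1.41-fold higher, adjusted p = 0.00424). In restored-labelled replicates 1 and 3 it was at 0.143 and 0.197 CPM, under the floor of 0.238 CPM. Without restored-labelled replicate 4 the bound of CYP2A6 was 1.17-fold. CYP2A7, its near-identical neighbour, had 2, 0, 1 and 0 against 7, 21, 4 and 6 counts (at least 2.54-fold higher, adjusted p = 0.0206). That bound rests on restored-labelled replicate 2, without which the mean was 0.227 CPM, under the floor of 0.238 CPM. Since 38.6% and 25.9% of their 50-base exon words occur in another gene, how counts were split between these 2 is uncertain.

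No other steroid hormone P450 reached the filter either. CYP11A1, the side-chain cleavage enzyme, CYP11B1 and CYP11B2 were at 0 in every library, CYP21A2 had at most 1 count, and CYP19A1, the aromatase, had 0 to 5 counts in parental and 1 to 16 in restored-labelled libraries. CYP3A4, the main drug-oxidising P450 of adult liver, had 2 to 7 and 3 to 18 counts, and CYP3A7, its fetal relative, 1 to 14 and 6 to 29. For CYP3A7, 67.8% of 50-base exon words occur in another gene. CYP2D6, which oxidises codeine, had 3 to 10 and 2 to 13 counts and shares 37.1% of its words. CYP1A2 and CYP2C8 had at most 4 counts in any library.

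Per kilobase of exon, the order of the 22 tested members was led by CYP1A1 in both groups, with 264 ± 63.5 and 176 ± 41.1 CPM per kb (SD, n = 4). CYP2S1 followed at 37.3 ± 8.60 and 61.0 ± 11.9. In parental libraries CYP24A1 (18), CYP4F3 (15.2), CYP2B6 (13.7) and CYP20A1 (11.7) came next, and each overlapped its neighbour in this order. In restored-labelled libraries CYP4F3, at 28.0 ± 2.71, lay above the range of CYP24A1 (13.5), CYP4F12 (12.5), CYP20A1 (11.7) and CYP2B6 (10.1), which overlapped each other. CYP4F11 moved from place 22 of 22 (0.0472 ± 0.0292 CPM per kb) to place 10 (3.56 ± 1.43), and CYP27A1 from place 7 (8.11 ± 1.89) to place 11 (3.04 ± 1.57). With at most 5 parental counts, CYP4F11 passed the filter through the restored-labelled libraries, so a last place in parental libraries carries little meaning. It was not the lowest of all members there. The untested CYP2D6 and CYP26A1, left out of the order, had 0.234 and 0.148 CPM per kb in parental libraries.

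Genes that act with the P450s were read from 8 lists. Counts called in them are to be read beside the 19.2% called among all genes. The shares were 21.7% for the transcription factors, 16.7% for haem, 14.3% for cholesterol synthesis, 28.6% each for receptor targets and retinoid metabolism (2 of 7) and 50% for the pericentral list (5 of 10). None of the 9 tested of 10 redox partners was called (median log2 fold change 0.08). POR, the reductase that feeds electrons to microsomal P450s, had 350 ± 3.80 and 341 ± 61.3 CPM (SD, n = 4). CYB5B, a cytochrome b5 of the outer mitochondrial membrane, stood at 163, 305, 296 and 297 CPM in parental and 378, 382, 359 and 373 CPM in restored-labelled libraries and was not called (adjusted p = 0.0880), with parental replicate 1 far below the others. FDX1, the ferredoxin of mitochondrial P450s, was not called (log2 fold change -0.29 ± 0.11 (SE), adjusted p = 0.0983, and 0.0382 without parental replicate 1), nor was PGRMC2, a haem-binding membrane protein (0.27 ± 0.17, adjusted p = 0.305). With all libraries kept CYB5B passed without the expression filter and FDX1 with the DESeq2 Wald test. Of 12 genes of haem synthesis and breakdown 2 fell and none rose (median -0.10). HMOX1, the inducible haem oxygenase, stood at 1040, 1097, 984 and 1144 CPM in parental and 485, 603, 712 and 569 CPM in restored-labelled libraries. The groups were well apart (log2 fold change -0.85 ± 0.14 (SE), adjusted p = 0.0030). PPOX, a late enzyme of haem synthesis, was not called (0.29 ± 0.13, adjusted p = 0.148).

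Of 24 transcription factors known to act on P450 genes 23 were tested, 3 rose and 2 fell, with a median of 0.09. NR1H4, the bile acid receptor FXR, stood at 2.05, 1.96, 1.51 and 1.00 CPM in parental and 6.74, 20.6, 20.1 and 23.6 CPM in restored-labelled libraries. It rose by 3.44 ± 0.40 on the log2 scale (SE, adjusted p = 3.5e-04), with restored-labelled replicate 1 lowest, as for CYP4F11. NR1I2, the drug sensor PXR, had 0.114 ± 0.0292 and 1.27 ± 0.452 CPM (SD, n = 4), at least 5.33-fold higher (adjusted p = 9.1e-04). VDR is given above. NR0B2, the repressor SHP, and RARG, a retinoic acid receptor, both named after their values were seen, fell by 0.58 and 0.64 on the log2 scale (adjusted p = 0.0318 and 0.0334). AHR, the receptor that switches on CYP1A1, and HNF4A, a main hepatocyte factor, were not called (log2 fold changes of 0.25 ± 0.14 and 0.09 ± 0.18, SE).

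Of 21 genes of cholesterol synthesis all were tested, 3 rose and none fell, with a median of 0.19. They were HMGCS1, which makes HMG-CoA (1.11 ± 0.19 on the log2 scale, SE, adjusted p = 0.0032), INSIG1, a sterol sensor partner (0.74 ± 0.12, adjusted p = 0.0020), and FDFT1, the squalene synthase (0.72 ± 0.20, adjusted p = 0.0280). The call of FDFT1 was lost without restored-labelled replicate 2, 3 or 4, with adjusted p between 0.0533 and 0.0883. Of 8 aryl hydrocarbon receptor targets other than P450s, 7 were tested, 2 rose and none fell, with a median of 0.22 (-0.15 without the first replicate of both groups). ALDH3A1, an aldehyde dehydrogenase, rose by 1.53 ± 0.33 and UGT1A6, a glucuronosyltransferase whose exons are partly those of other UGT1A genes, by 1.70 ± 0.37 (SE, adjusted p = 0.0097 and 0.0113). SLC7A5, an amino acid transporter, was not called (-0.53 ± 0.21, adjusted p = 0.105), but passed without parental replicate 1 (adjusted p = 0.0386) or restored-labelled replicate 1 (adjusted p = 0.0189).

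In retinoid metabolism 7 of 13 listed genes were tested, 2 rose and none fell, with a median of 0.39. CRABP1, a retinoic acid carrier, rose from 0.322 ± 0.213 to 2.5 ± 0.42 CPM (SD, log2 fold change 2.89 ± 0.42 (SE), adjusted p = 0.0012). ALDH1A1, which makes retinoic acid, rose from 1251 ± 360 to 2228 ± 548 CPM with overlapping ranges (adjusted p = 0.0401). That call was lost without parental replicate 2 or 3 or restored-labelled replicate 2, 3 or 4 (adjusted p between 0.0576 and 0.121). RDH10, a retinol dehydrogenase, was not called (0.47 ± 0.15, adjusted p = 0.0566), but passed without restored-labelled replicate 2 (adjusted p = 0.0388). With all libraries kept it also passed without the expression filter, with the DESeq2 Wald test and after thinning. Of 13 genes typical of pericentral hepatocytes or of Wnt feedback, chosen with results of these data known, 10 were tested, 3 fell and 2 rose, with a median of -0.09. LGR5, an R-spondin receptor, fell by 5.49 ± 0.62 and SP5, a Wnt-induced factor, by 3.27 ± 0.58 on the log2 scale (SE, adjusted p = 2.9e-04 and 0.0037). TBX3, also a Wnt target of liver, was 1.47 lower. SLC1A2, a glutamate transporter, rose by 2.95 ± 0.36 (SE, adjusted p = 4.5e-04) and OAT, ornithine aminotransferase, was 0.80 higher. The tested genes of the list not called were GLUL (-0.05), AXIN2 (-0.31), ZNRF3 (-0.09), SLC1A4 (-0.09) and RNF43 (0.39, adjusted p = 0.0546). TBX3, OAT and these uncalled genes were named after their values were seen. TBXAS1 and PTGIS, P450 enzymes of prostanoid synthesis whose symbols fall outside the form used here, were at no more than 0.0781 CPM summed. Leaving out 1 library moved the list medians to between 0.04 and 0.13 for redox partners, -0.18 and -0.04 for haem, 0.0084 and 0.08 for transcription factors, 0.07 and 0.27 for cholesterol synthesis, 0.0043 and 0.23 for receptor targets, 0.28 and 0.45 for retinoid metabolism and -0.23 and -0.02 for the pericentral list. Without both first replicates the cholesterol median was 0.04 and the pericentral one -0.29.

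Without the first replicate of both groups, an alternative chosen after seeing the data, 14 P450 genes were called, 9 higher and 5 lower, while calls over all genes tested went from 2738 to 4623. Without parental replicate 1 alone 9 were higher and 6 lower, and without restored-labelled replicate 1 alone 8 were higher and 5 lower (3159 calls over all genes). Lower calls numbered 3 without restored-labelled replicate 2, 3 or 4. Calls of all genes tested ranged from 1394 without restored-labelled replicate 4 to 3523 without parental replicate 1, and numbered 1508 without parental replicate 2 and 1531 without restored-labelled replicate 3.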

How the data were processed

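RNA of 4 parental and 4 restored-labelled samples was sequenced from libraries of an mRNA kit, per the labels' protocols. The submitters' processing notes name bcl2fastq, fastp 0.23.1, STAR 2.7.4 and GRCh38. The counting program, annotation and use of strand are not given in the sources used here. The authors deposited whole-number counts for each gene, without normalization. All 8 columns were matched to samples by the column names in the labels. Members and gene lists were chosen with earlier results of these data known.

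Counts were tested in R 4.3.3 with edgeR 4.0.16 (filterByExpr with minimum count 10 and minimum total 15, TMM, quasi-likelihood test without covariates, two-sided, Benjamini-Hochberg over 14289 genes, threshold 0.05). CPM use TMM-scaled totals, and principal components log2 CPM with a prior count of 2. SE was taken as the size of the log2 fold change divided by the root of F, and intervals are at 95%. A group with no library above 3 counts was set to 3 counts per library, which makes the fold a lower bound. Floors cover counting error only.

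Of the identifiers, 57943 were found in GENCODE 29 (GRCh38), which gave coordinates, exon lengths, overlaps and coding sequences; promoters came from RefSeq (GRCh38.p14). Sequences were aligned with Biopython 1.88. The test was checked on simulated counts.

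Named genes are all called members, tested members not called with a mean of at least 1 CPM, untested members with 10 or more counts in a library or central to a role, AXIN1, and the 3 genes of smallest p-value per list. Alternatives in scaling were upper-quartile factors, the size factors of DESeq2 1.42.0 and plain totals. Others were no filter, a minimum mean of 1 CPM, limma-voom (limma 3.58.1), the Wald test of DESeq2, the replicate number as a block, thinning to 11232951 counts, an adjusted p under 0.01, leaving out each library, and leaving out both first replicates, the last chosen after seeing the data. Of the genes this rule names, 2 are not reported here.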

Additional observations from a re-analysis of the deposited data

Results flagged for a closer look

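The genes examined were the tested members described here, AXIN1, and, of each list of genes acting with P450s, those described among the 3 of smallest p-value. Each was taken in both groups, which gave 84 groups of 4 libraries. In 7 of them 1 library lay apart from the other 3. The gap, as a share of the group's range on the log2 CPM scale, was above Dixon's 95% critical value. Chance alone gives about 1 in 20. Restored-labelled replicate 1 accounted for 4 of the 7: it was lowest for CYP4F11 (5.74 CPM, gap 0.905 of the range) and NR1H4 (6.74 CPM, 0.872) and highest for CYP2J2 (1.90 CPM, 0.842) and SLC7A5 (1154 CPM, 0.844). In all 4 it lay on the side of the parental libraries. Parental replicate 1 was lowest for CYB5B (163 CPM, 0.951) and FDFT1 (17.4 CPM, 0.896). Restored-labelled replicate 4 was lowest for AXIN1 (37.7 CPM, 0.946).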

How the results depend on the processing

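Calls of CYP4F11, CYP4F12, CYP4F3, CYP4V2, CYP27A1, CYP27B1 and CYP39A1 held in all 18 alternatives with a refit. Of the 180 values of called members under alternatives 162 stayed past the threshold, 18 did not and none changed direction. Of 195 values of uncalled members described here 166 stayed, 19 passed the threshold and 10 changed direction. Without an expression filter 19 P450 genes were called, 13 of them higher, where more genes are tested. At an adjusted p under 0.01, 964 genes were called, among them 5 members (3 higher, 2 lower) and 10 list genes, against 19 list genes in the main test. After thinning, 3 members were lower. Leaving out 1 library gave 1394 to 3523 genes, 7 to 15 members, 4 to 9 higher, 3 to 6 lower and 11 to 24 list genes. Leaving out both first replicates gave 4623 genes and 9 members higher; the cause was not tested.

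The members that changed direction were all uncalled, and the cause was not tested. CYP20A1 was at -0.0010 with DESeq2 size factors, -0.0011 with the DESeq2 Wald test and -0.051 after thinning, and ranged from -0.046 to 0.10 over single libraries left out. CYP51A1 was at -0.10 without both first replicates and ranged from -0.079 to 0.67. CYP1B1 ranged from -0.54 to 0.0066, and CYP2C18 from -0.064 to 0.55.

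Same-numbered samples did not pair: their deviations from the group means correlated at -0.063, 0.0067, -0.032 and 0.227, 1 of 4 over 0.1, and not every sample correlated best with its own number. With the replicate number as a block 2033 genes and 10 members were called, CYP1A1 passed (adjusted p = 0.0392) and CYP2E1 did not (0.0675). At these depths members with a few counts per library have no test of their own.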
